A study of Rattus norvegicus with 6 samples.

Results

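The regions described here are stretches of the rat genome where transcripts were assembled from the reads but where no named gene lies. In each of 6 libraries the assembly program gave some loci an identifier of its own and no gene name. A locus was taken where it overlapped no locus of a named row in any of the 6 tables, and overlapping loci of different libraries were then merged into regions. Of 290171 unnamed loci, 106707 (36.8%) lay outside named genes, and they merged into 22395 regions. The unnamed loci that overlapped named genes made a further 78832 regions, 101227 in all. The members were chosen by measured values, namely the positions and the assembly of the loci in these 6 libraries. So recurrence, position and level are given below as descriptions, and only the comparison between the groups of rats was tested.

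RNA was sequenced from tissue labelled prefrontal cortex of 6 male rats of the inbred strain F344, aged 18 months, with 1 library for each rat. Rats 4, 5 and 6 received cranial osteopathic manipulation (COM), a manual treatment of the head, for 7 days under 1.5 to 3% isoflurane. Rats 1, 2 and 3 were untreated but were anaesthetised too. The tissue was a coronal section of 1 mm, and the title of the series names age-related cognitive decline and cholinergic genes as its subject. Libraries are called untreated 1 to 3 and manipulated 4 to 6, and p-values measure the spread among these rats. All levels are FPKM, fragments per kilobase of transcript, scaled also to the mapped fragments of the library.

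Transcripts that an annotation does not hold are common in brain. They include long 3′ ends of neuronal mRNAs, first exons far upstream of a known start, long noncoding RNAs, RNA made at enhancers, and copies of small structural RNAs and repeats. Total RNA also carries unspliced nuclear RNA, so that introns of long neuronal genes appear as assembled loci. A locus without a name is therefore a place on the genome where reads were joined, and its kind is not known from the table.

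The label held when checked against the tables. Among the members, 5 loci in 1 region overlapped an annotated row that has an identifier but no symbol, and no member had a failed estimate or a value of 0. At the edge of the rule, 8 loci touched a named row with no base shared, and 60 lay within 10 bases of one. The locus at chr1:241567435-241567652 in untreated 1 (7.16 FPKM) touched a named row and was a member. On the other side, 4 loci overlapped a named row by 1 base and were not members, such as chr1:28393377-28393726 in manipulated 6 (1.04 FPKM). Of the unnamed loci that were not members, 177772 lay wholly within a named row and 5692 overlapped one in part. Positions are on the build Rnor_6.0.

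The summed levels of the thalamic and hypothalamic, striatal, interneuron and ependymal markers separated the groups. The part of these and other markers in the results below was not tested. Of 13 measured genes of thalamic and hypothalamic neurons, 13 had a negative and 0 a positive log2 fold change (median -2.37), and their summed level was 168.4 to 249.7 FPKM in untreated and 25.5 to 87.8 FPKM in manipulated libraries. Of 13 measured genes of striatal medium spiny neurons, 13 had a positive value (median 1.16), with sums of 61.3 to 93.9 and 95.4 to 241.8 FPKM, and Rarb was listed at 0 throughout a group. Of 7 choroid plexus genes, 7 had a positive value (median 0.71), and Kcnj13 was at 0 throughout a group. Their sums overlapped between the groups, at 459.7 to 468.0 and 239.6 to 1240.0 FPKM. Of 3 ependymal genes, 3 had a positive value, with sums of 2.62 to 5.15 and 7.28 to 7.95 FPKM. Of 10 interneuron genes, 7 had a positive and 3 a negative value, with sums of 255.3 to 384.8 and 183.8 to 254.7 FPKM. The nearest of these sums, 255.3 and 254.7, were almost equal. Of 7 oligodendrocyte, 4 astrocyte and 5 microglial genes, 6, 3 and 5 had a negative value, and the sums overlapped. The sums of the endothelial and olfactory bulb lists overlapped too. Over all 10992 features tested below, 13.8% had a log2 fold change above 0, and the median was -0.36. The sums of 10 cortical neuron genes overlapped, at 257.9 to 325.9 and 222.6 to 384.2 FPKM, so the labelled tissue's own markers were present in both groups. In bulk tissue, fewer cells of a type and less RNA per cell cannot be told apart. The fragment number implied by the width of the deposited intervals was 34682467 to 38582539 in untreated and 33976679 to 42858734 in manipulated libraries (exact two-sided permutation p = 0.8, n = 3 and 3).

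Fewer loci outside named genes were assembled in the manipulated libraries. Untreated 1, 2 and 3 held 29309, 18560 and 23194 such loci, and manipulated 4, 5 and 6 held 14502, 7579 and 13563. Every manipulated library lay below every untreated one. The means were 23687.7 ± 5391.5 and 11881.3 ± 3755.4 loci (SD, n = 3 each), a ratio of 0.502, with an exact two-sided permutation p of 0.1, the smallest that 3 against 3 can give (0.162 after Benjamini-Hochberg adjustment over 21 quantities). The number of unnamed loci inside named genes differed in the same direction, with 53845, 32942 and 43194 in the untreated and 21030, 9496 and 22957 in the manipulated libraries, a ratio of 0.411 (exact permutation p = 0.1). The share of a library's unnamed loci that lay outside genes was 35.25, 36.04 and 34.94% in untreated and 40.81, 44.39 and 37.14% in manipulated libraries, so the groups did not overlap in this share either. The genome covered by the loci, introns included, was 43325043, 25803477 and 33121320 bases against 22545502, 16235449 and 20156465 bases, a ratio of 0.576 (exact permutation p = 0.1). The lower number of manipulated loci held for loci of at least 1 FPKM, with 10112, 6423 and 10358 against 5798, 3239 and 4125. At 100 FPKM and over the groups overlapped, with 145, 110 and 143 against 99, 112 and 85 loci, and manipulated 5 lay above untreated 2.

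The level of the typical locus was low and did not separate the groups. The median locus had 0.797, 0.794 and 0.929 FPKM in untreated and 0.866, 0.883 and 0.715 FPKM in manipulated libraries (exact permutation p = 0.9). Named genes with a mean of at least 1 FPKM had medians of 2.75 to 5.50 FPKM in the same libraries, over a set filtered on level. The median locus spanned 648, 590 and 588 bases in untreated and 585, 550 and 548 bases in manipulated libraries, a ratio of 0.922 with groups that did not overlap (exact permutation p = 0.1). The nearest values, 588 in untreated 3 and 585 in manipulated 4, were almost equal. The interval deposited with a typical locus implied 14.0 to 16.1 fragments, so a single locus was measured with little depth.

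Most regions were seen in few libraries, while most loci lay in a small set of recurrent regions. Of the 22395 regions, 11180 (49.9%) had a locus in 1 library alone, and 4265, 2334, 1491 and 1376 had one in 2, 3, 4 and 5 libraries. The 1749 regions seen in all 6 libraries were 7.81% of regions and held 52.3% of loci. Regions grew with recurrence: the median span was 513 bases for regions of 1 library and 3480 bases for regions of all 6. A longer region has more places to overlap a locus of another library, so this relation follows in part from the merging. The median locus FPKM was 0.686 in the former and 0.899 in the latter. Untreated 1 alone accounted for 7520 regions (33.6%), the most of any single pattern.

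The fewer loci a library had, the larger was the share of them in the recurrent regions. The share of loci in regions of all 6 libraries was 33.4, 57.7 and 45.7% in the untreated and 66.1, 73.4 and 70.2% in the manipulated libraries. In numbers, these were 9790, 10701 and 10602 loci against 9589, 5562 and 9514. Untreated 1 to 3 had 7528, 701 and 2140 loci in regions that no other library shared, and manipulated 4 to 6 had 389, 168 and 265. The groups were further apart in the loci of regions with few libraries than in those of regions common to all, a contrast that was not tested. Manipulated 5 stood apart from manipulated 4 and 6 in the recurrent regions as well.

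**Figure D1:**
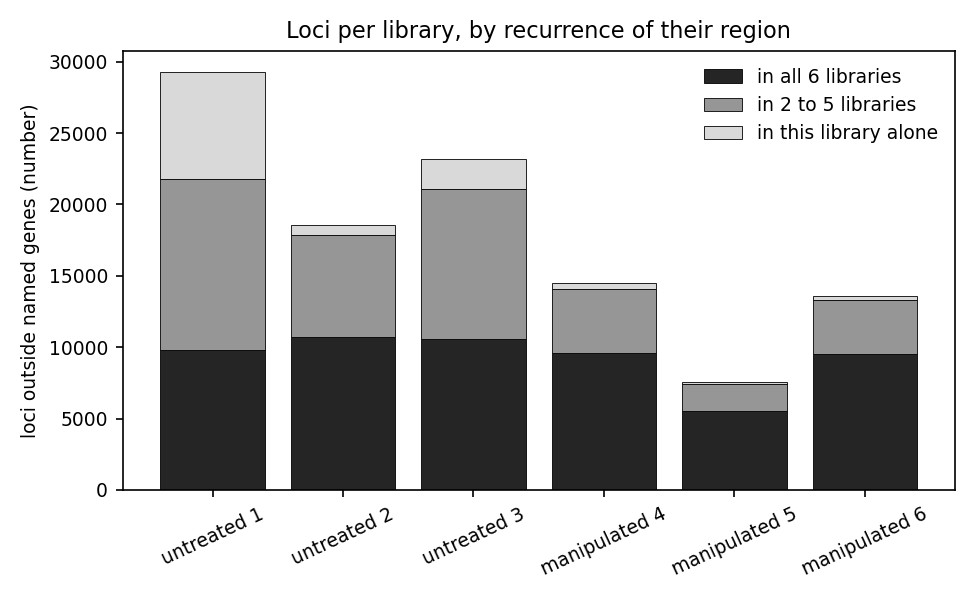
Number of unnamed loci outside named genes in each library (bars, from 0), divided by whether the region was seen in that library alone, in 2 to 5 libraries or in all 6. The 3 manipulated libraries hold 7579 to 14502 loci and the 3 untreated ones 18560 to 29309, and the part in regions of all 6 libraries varies least, apart from manipulated 5.

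Regions occurred at all distances from named genes. Of the regions on a sequence with a named row, 3981 (17.9%) lay within 1 kb of one, 5199 (23.3%) at 1 to 10 kb, 8525 (38.2%) at 10 to 100 kb and 4590 (20.6%) beyond 100 kb. Another 100 regions had no named row on their sequence. Of those in all 6 libraries, 504 (29.1%) lay within 1 kb. The median distance was 17875 bases for regions of 1 library and 11319 for regions of all 6. For regions of 2, 3, 4 and 5 libraries it was 22224, 23321, 21231.5 and 21278, so distance did not fall steadily with recurrence. Distance is taken from the ends of a region, and regions of all 6 were the longest, so their nearness follows in part from the merging. By locus, the median distance was 51523.5, 64895 and 63907 bases in the untreated libraries and 70243, 27965 and 78342.5 in the manipulated ones (exact permutation p = 1.0), and the groups overlapped. Manipulated 5 had the shortest distances, with 15.7% of its loci within 1 kb of a named row. In the other libraries that share was 8.04 to 9.45%.

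**Figure D2:**
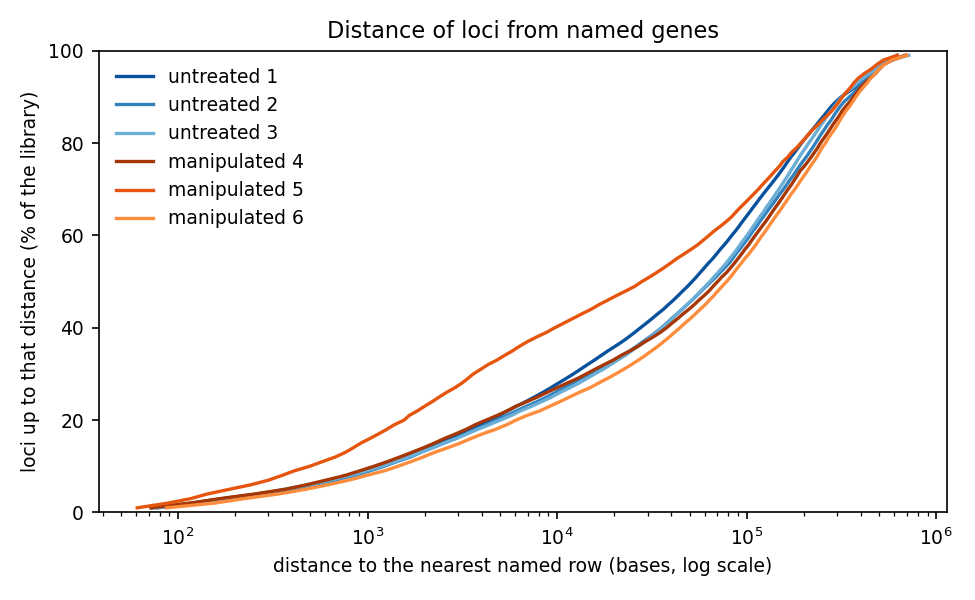
Cumulative share of each library's loci (percent) against the distance to the nearest named row (bases, log scale), 1 line per library. Manipulated 5 has 15.7% of its loci within 1 kb against 8.04 to 9.45% in the others, and its line meets those of untreated 1 and 3 at long distances.

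Loci were concentrated in long tracts. Loci joined across gaps of up to 10 kb made 112 tracts of at least 100 loci, which ran over 28559 to 1301023 bases (median 279787). These tracts held 55.4, 65.3 and 63.1% of the loci of untreated 1 to 3, and 66.0, 48.9 and 69.9% of those of manipulated 4 to 6. An end lay within 1 kb of a named row in 36 tracts and within 10 kb in 63, while in 10 both ends were beyond 100 kb. By chromosome, the density of loci was highest on chromosomes 11, 16 and 10, with 99.2, 95.8 and 77.8 loci per Mb, and lowest on X, with 10.8.

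Some of the largest tracts ended close to a named gene, and those described here were picked after their values were seen. The largest, chr10:8687156-9988178, began 70 bases from Rbfox1, which encodes a neuronal splicing factor, and held 3382 loci. The loci covered 86.1, 66.5 and 70.1% of it in the untreated and 56.4, 39.2 and 54.1% in the manipulated libraries. Over the whole tract, every untreated library covered more than every manipulated one. This order did not hold along its full length. In the 20-kb bin at 400 kb from its start, manipulated 4 and 5 were covered to 100% and untreated 2 and 3 to 42.3 and 63.7%. In the bin at 600 kb, all 3 manipulated libraries were at 100% and untreated 3 at 44.1%. Rbfox1 itself stood at 42.5, 32.1 and 27.7 against 26.0, 27.3 and 14.7 FPKM, and untreated 3 and manipulated 5 were nearly equal.

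**Figure D3:**
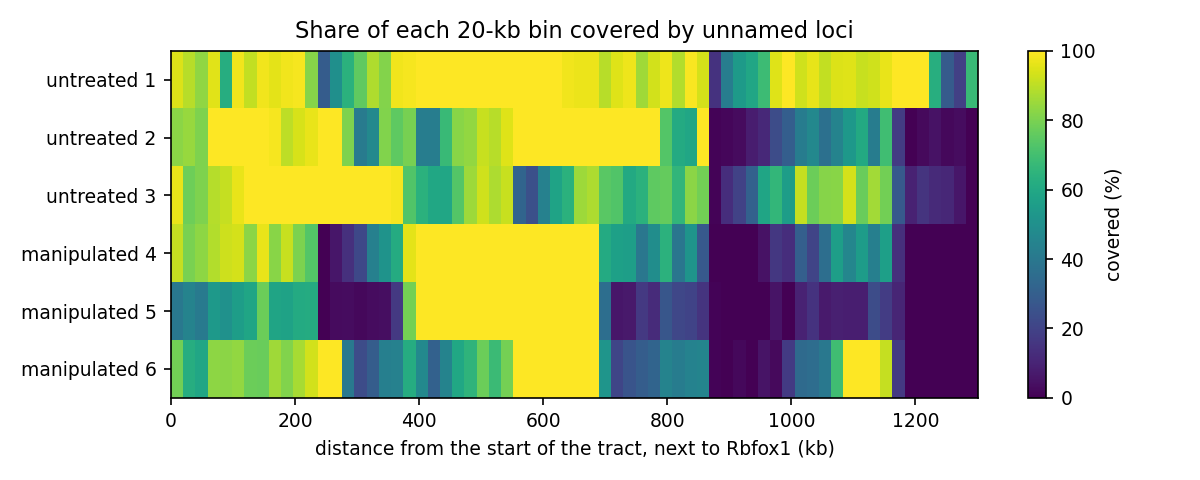
Share of each 20-kb bin covered by unnamed loci (colour, percent) along the tract beside Rbfox1 (distance from its start in kb), with 1 row per library. Coverage of the whole tract runs from 66.5 to 86.1% in the untreated rows and from 39.2 to 56.4% in the manipulated rows. The order differs along it: in the bin at 600 kb all 3 manipulated rows are at 100% and untreated 3 is at 44.1%.

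The tract chr14:65978879-66597845 ended 320 bases from Kcnip4, which encodes a partner protein of voltage-gated potassium channels. It was covered to 88.0, 84.2 and 83.1% in the untreated and to 52.0, 24.4 and 48.3% in the manipulated libraries, and Kcnip4 stood at 22, 7.75 and 12.5 against 8.44, 5.81 and 3.19 FPKM. The groups were separate in the tract's coverage and overlapped in the gene's level. Beside Celf2, a regulator of RNA splicing, the tract chr17:74754058-75259280 lay 210 bases away and was covered to 67.2, 61.4 and 54.3% against 41.9, 10.8 and 34.1%. Celf2 had 70.3, 27.4 and 44.3 against 31.5, 22.9 and 19.1 FPKM. The coverage was again separate between the groups and the gene's FPKM was not.

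The tract chr15:77316338-77710649, 106 bases from Pcdh9, a protocadherin of neuronal adhesion, was covered to 93.5, 75.2 and 85.7% in untreated and 74.9, 31.9 and 60.5% in manipulated libraries. Untreated 2 and manipulated 4 were nearly equal in it. The tract chr13:40367541-41174036, 65659 bases from Dpp10, whose product associates with potassium channels, was covered to 81.2, 77.8 and 80.1% against 63.3, 37.3 and 52.3%. Dpp10 had 9.17, 4.78 and 7.80 against 5.86, 5.43 and 2.34 FPKM, so the gene overlapped between the groups where the tract did not. Not all large tracts had such a neighbour: chr16:85523930-86053646, with 1513 loci, lay 59927 and 411889 bases from rows that carry only clone-based names, and was covered to 84.1, 65.9 and 91.8% against 51.7, 29.1 and 55.7%.

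Across the 112 tracts, the covered share was lower in every manipulated than in every untreated library in 67 and higher in 0. Among all 1272 tracts of at least 10 loci this was so in 35.4% and 0.786%. Both sets of tracts were chosen by loci pooled over the libraries, of which the untreated held more. These counts therefore follow in part from the choice of tracts and are descriptions. The median tract was covered to 69.2, 30.8 and 48.0% in untreated and 21.2, 4.92 and 20.3% in manipulated libraries, and manipulated 5 was the lowest of the 6 in 93 tracts. Outside the tracts, the number of loci was also lower in each manipulated library, with 13084, 6441 and 8562 against 4933, 3876 and 4084. A higher number of loci does not mean more of a tract: at chr1:85677587-85976847, untreated 1 had 94 loci that covered 97.8% and manipulated 6 had 232 that covered 93.5%.

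The longest regions seen in all 6 libraries spanned long stretches without a named row. The longest, chr1:121591736-122301128 (709393 bases), lay between a SNORD115 row 11371 bases away, a cluster of small nucleolar RNA genes in the imprinted Prader-Willi region, and Mir344a-2, a microRNA gene 7180 bases away. Its 624 loci covered 69.2, 82.6 and 100% in untreated and 81.9, 84.5 and 49.7% in manipulated libraries, so the groups overlapped. The second, chr3:135269206-135837475 (568270 bases), was 572173 bases from Flrt3, which encodes a leucine-rich repeat membrane protein. Its longest locus spanned 277803 to 278055 bases in 5 libraries and 568232 bases in untreated 2.

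The recurrent regions farthest from any named row included chr1:180643787-180904629, which lay 1167774 bases from Ythdc2. Its mean level, weighted by locus span, was 9.75, 19.3 and 10.3 FPKM in untreated and 10.1, 10.1 and 9.62 FPKM in manipulated libraries. The groups overlapped and untreated 2 was the highest. The others were a region of the unplaced scaffold KL568161.1 at 7178872 to 7194161, 1105118 bases from a named row, and chr10:9533137-9567500, inside the tract beside Rbfox1 and 846051 bases from it. The last had 1.39, 0.918 and 1.20 against 1.04, 0.867 and 0.913 FPKM, with overlapping groups.

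A set of 354 regions had exactly 1 locus in each of the 6 libraries, which allowed a level to be followed from rat to rat. Short loci had high FPKM. The 126 regions with a median span under 200 bases had a median of 71.7 FPKM, the 179 from 200 to under 1000 bases had 4.81 FPKM and the 49 of 1000 bases and over had 4.46 FPKM. Across the 354 regions, Pearson's r of log mean FPKM with log median span was -0.60 and Spearman's rho -0.80. These points share their libraries, and span itself enters the scaling of FPKM. The deposited intervals implied a median of 27.5, 28.1 and 171.1 fragments in the 3 classes, so the high FPKM of the short regions did not come with more implied fragments.

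**Figure D4:**
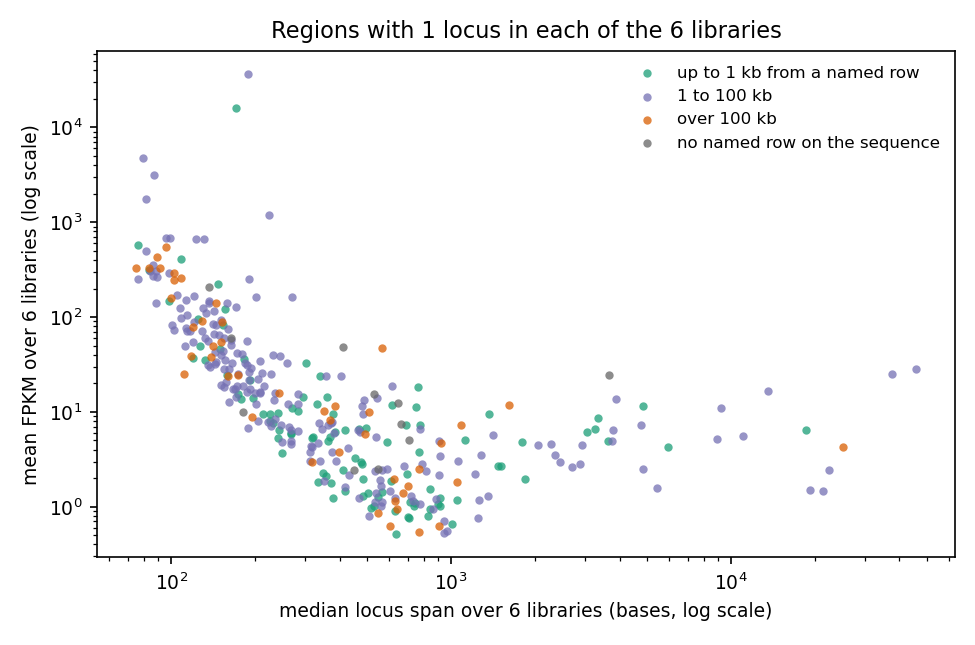
Mean FPKM over 6 libraries against the median span of the locus in bases (both log scales) for the 354 regions with 1 locus in every library. FPKM falls with span, from a median of 71.7 in regions under 200 bases to 4.46 in those of 1000 bases and over.

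The regions with the highest mean FPKM were mostly of this short kind. The highest of those seen in all libraries was chr3:102594704-102594897, with spans of 180 to 194 bases, 5443 bases from a row with a clone-based name and 24774 bases from the olfactory receptor gene Olr756. It had 5066.9, 8350.9 and 6920.8 FPKM in untreated and 39191.7, 25100.4 and 136164 FPKM in manipulated libraries. All 3 manipulated values were higher, and manipulated 6 was the highest. The log2 fold change was 2.95 ± 0.57 (SE), which did not pass (limma adjusted p = 0.115). The implied fragments overlapped, at 1763.6, 11651.5 and 7999.3 in untreated and 2245.6, 35995 and 2331.5 in manipulated libraries. They did not follow FPKM at these near-equal spans: manipulated 4 had 39191.7 FPKM with 2245.6, and manipulated 5 had 25100.4 FPKM with 35995. The intervals therefore do not show how many fragments lay behind the level of manipulated 6. Both neighbouring rows were listed at 0 in all 6 libraries.

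The next highest, chr2:110305564-110305878, lay 484 bases from LOC499584 and varied within both groups, from 1470.8 FPKM in untreated 3 to 46272.4 in untreated 2, and from 3757.4 in manipulated 6 to 30188.7 in manipulated 5. Its highest values came with its shortest spans, 106 and 120 bases, and its lowest with its longest, 253 bases. The region chr7:32158656-32158754 had 5222.1, 4517.4 and 12895.7 FPKM against 2504.8, 2150.9 and 1039.3, lower in all 3 manipulated libraries, with a log2 fold change of -1.92 ± 0.50 that did not pass (limma adjusted p = 0.262). At chr7:14517809-14517913, 2596 bases from Cyp4f39, a cytochrome P450 gene, the values of 1755.0 to 5582.7 and 1518.4 to 3311.9 FPKM overlapped.

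The other 6 of the 10 highest had means of 674.3 to 1768.4 FPKM. Of these, chr17:11940656-11940775 lay 12776 bases from Ror2, a receptor tyrosine kinase gene, and chr12:10211483-10211763 lay 42598 bases from Gpr12, a receptor gene expressed in brain. Their groups overlapped, at 708.8 to 2539.0 and 1514.2 to 2355.5 FPKM for the former and 681.4 to 1666.2 and 588.2 to 1943.8 FPKM for the latter. At chr5:170542248-170605490 the values were 1023.2, 807.4 and 969.5 against 448.3, 358.8 and 438.7 FPKM, lower in all 3 manipulated libraries (log2 fold change -1.17 ± 0.31, limma adjusted p = 0.28). In manipulated 5 its locus ran over 63242 bases, while in the other libraries it spanned 93 to 104.

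The remaining 3 of the 10 included long loci in some libraries. At chr12:10156300-10208313, 46048 bases from Gpr12, the mean weighted by locus span was 1337.4, 799.9 and 1670.1 FPKM in untreated and 390.0, 915.8 and 262.6 in manipulated libraries, with manipulated 5 above untreated 2. At chr15:94858947-94957930 it was 1352.7, 669.9 and 1679.1 against 564.5, 637.6 and 92.5 FPKM, without overlap, and manipulated 6 had 2 loci with a summed span of 99083 bases where the other libraries had 1 of 88 to 92. At chr16:31313485-31334912 the values of 539.5 to 1079.7 and 470.4 to 815.7 FPKM overlapped.

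Of the 354 regions, 335 had a mean of at least 1 FPKM and were tested with limma beside the named genes, 10992 features in all. Of the 335 regions, 1 passed at an adjusted p of 0.05 (0.299%) and it was higher in the manipulated libraries, while 0 were lower. Over all features 0.318% passed, 0.091% higher and 0.227% lower, so the share of the regions is near the background. At an unadjusted p under 0.05 there were 47 regions, 22 higher and 25 lower, against 14.6% of all features. The median log2 fold change of the regions was -0.14, against -0.36 over all features, and 136 regions (40.6%) were above 0, against 13.8% of all features. The groups did not overlap in 19 regions that were higher (5.67%) and 38 that were lower (11.3%) in the manipulated libraries, against 1.22% and 23.3% of all features. With libraries scaled to a common median ratio, which moved the median of all features to 0.0066, the median of the regions was 0.24, and 47 (14.0%) were higher and 10 (2.99%) lower without overlap, against 10.6% and 8.96%. The sign of the median therefore depends on the scaling, while under both the regions lay above the middle of all features. The regions had to have a locus in all 6 libraries, which was not asked of the named genes. Regions without a locus in a manipulated library were thus left out, and this position may follow in part from that choice.

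The region that passed was chr16:6541530-6542101, 114 bases from Dcp1a, which encodes an mRNA decapping factor. It had 2.29, 3.17 and 3.49 FPKM in untreated and 21, 28.5 and 14.2 FPKM in manipulated libraries, so that every manipulated value was above every untreated one. The log2 fold change was 2.44 ± 0.30 (SE; limma adjusted p = 0.0109). The assembled locus was also shorter in the manipulated libraries, at 184, 185 and 203 bases against 549, 463 and 535. The fragment numbers implied by the intervals were 22.7, 0.027 and 32.7 in untreated and 25.8, 34.7 and 30.4 in manipulated libraries. The 0.027 of untreated 2 cannot be a fragment number, since a locus was assembled there, and the measure fails for so wide an interval. Untreated 3, at 32.7, lay within the manipulated range. The interval in untreated 2 ran from 0 to 41.8 FPKM, which includes all 3 manipulated values. Dcp1a itself had 2.30, 1.29 and 1.62 against 1.57, 1.49 and 1.00 FPKM, with overlapping groups. The call was lost without the filter on low values (adjusted p = 0.148) and in a fit of the regions alone (adjusted p = 0.106).

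The other increases with the smallest p were short loci too, and none of them passed. At chr2:198614388-198614589, 7494 bases from a U1 row, a small nuclear RNA of the spliceosome, the values were 21.2, 74.9 and 33.3 FPKM in untreated and 291.6, 189.3 and 238.0 FPKM in manipulated libraries (log2 fold change 2.61 ± 0.47, limma adjusted p = 0.0874). The groups were far apart, and spans were 162 to 202 bases in the former and 94 to 112 in the latter. At chr2:197836044-197836532, 18862 bases from Ecm1, an extracellular matrix gene, the values were 2.05, 1.61 and 14.0 against 22.1, 31.6 and 43.1 FPKM (adjusted p = 0.212). In untreated 1 and 2 its intervals began at 0 and its spans were 353 and 489 bases, while in the other 4 libraries they were 116 to 151. At chr2:187134426-187134740, 338 bases from Pear1, a platelet and endothelial receptor gene, the values were 12.1, 4.02 and 3.40 against 20.2, 21.7 and 20.6 FPKM (adjusted p = 0.223). Untreated 1, with the highest untreated value, had a span of 177 bases, within the 170 to 178 of the manipulated libraries, whereas untreated 2 and 3 had 308 and 243.

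Among the decreases, a region beside Nmnat2 was the best measured. The region chr13:70559812-70563200 lay 158 bases from Nmnat2, which encodes an enzyme of NAD synthesis that maintains axons. It had 13.1, 9.12 and 9.37 FPKM in untreated and 1.51, 3.36 and 3.37 FPKM in manipulated libraries, and the lowest untreated value was well above the highest manipulated one. The log2 fold change was -1.65 ± 0.28 (SE), which did not pass (limma adjusted p = 0.0744). Its span was nearly the same in all libraries, 3314 to 3386 bases in untreated and 3195 to 3242 in manipulated. Nmnat2 had 18.4, 23.3 and 14.0 against 14.6, 15.8 and 10.8 FPKM, and its groups overlapped. The deposited intervals of the region, 8.54 to 13.8 FPKM over the untreated and 1.24 to 3.75 FPKM over the manipulated libraries, did not meet.

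The remaining decreases did not pass either. At chr5:76376385-76377067, 9768 bases from Ugcg, which encodes the enzyme that makes glucosylceramide, the values were 5.15, 2.36 and 4.79 against 0.737, 0.764 and 0.665 FPKM (log2 fold change -1.52 ± 0.27, limma adjusted p = 0.0874). The manipulated libraries were close to each other and all lower, with spans of 516 to 681 bases against 314 to 552. At chr2:209216868-209217187, 27035 bases from Dram2, a gene of autophagy, the values were 74.3, 36.9 and 66.3 against 23.5, 20.9 and 19.5 FPKM (adjusted p = 0.237). At chr7:1626052-1626216, 730 bases from a ribosomal RNA row named 5_8S_rRNA, they were 50.7, 88.2 and 58.7 against 21.9, 29.3 and 30.2 FPKM (adjusted p = 0.278).

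**Figure D5:**
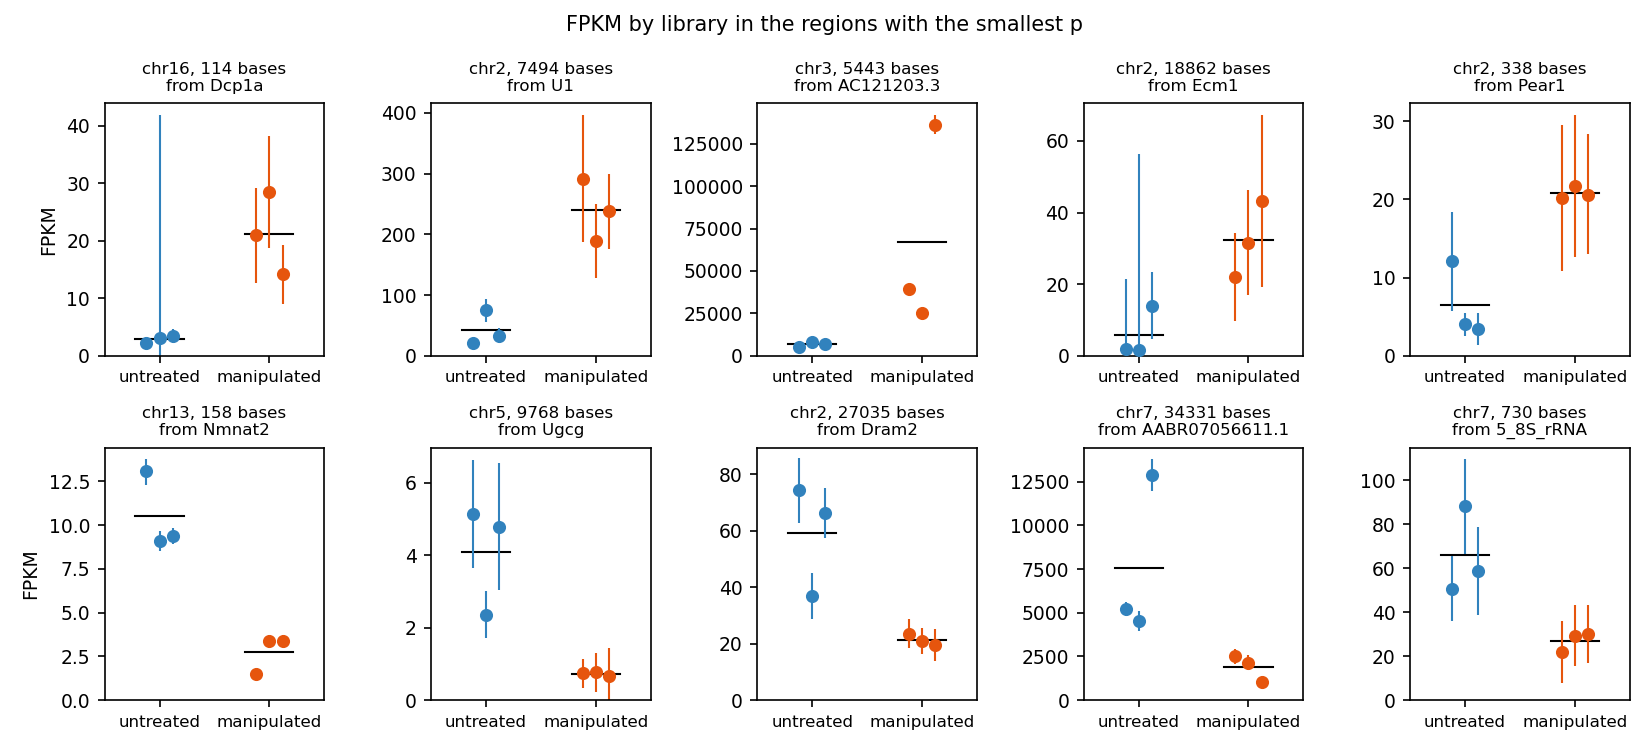
FPKM by library with the deposited interval (points and bars) and the group mean (line) for the 10 regions with the smallest p, each titled by its chromosome and nearest named row. In the region beside Nmnat2 all intervals are narrow and separate (up to 3.75 FPKM in manipulated, from 8.54 in untreated), while beside Dcp1a the interval of untreated 2 reaches from 0 to 41.8 FPKM.

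Change in level went with change in assembled span. Over the 335 regions, the log2 fold change had a Pearson's r of -0.28 and a Spearman's rho of -0.56 with the log2 ratio of mean spans, both taken from the same libraries. In 52 regions the mean span was at least 1.5 times shorter in the manipulated libraries. Their median log2 fold change was 0.92, with 44 above 0 and 13 higher against 2 lower without overlap. In the 9 where it was at least 1.5 times longer, the median was -0.85. In the 165 where mean spans were within 1.1 times of each other the median was -0.26, with 1 higher and 26 lower without overlap. Over all features, 1.22% were higher and 23.3% lower without overlap, and the median was -0.36. Of the 167 regions whose spans stayed within 1.5 times over all libraries, 1.8% were higher and 16.2% lower without overlap. The part of span in the differences between the groups was not tested further than this, and a change of level and a change of the assembled model cannot be told apart in such regions.

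Long regions with a stable span gave the steadiest levels. These were picked after their values were seen, as the 10 of at least 1000 bases with the most implied fragments. The region chr7:118151469-118156300, 118 bases from Rbfox2, a splicing factor gene, was assembled with the same 4832 bases in all 6 libraries. It had 15.8, 11 and 11.2 FPKM in untreated and 12.4, 11.6 and 7.12 FPKM in manipulated libraries (log2 fold change -0.28 ± 0.29, limma adjusted p = 0.525). Rbfox2 stood at 19.0, 25.4 and 18.2 against 17.1, 17.4 and 19.3 FPKM, so region and gene both overlapped between the groups.

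Others of this kind also lay close to a named gene. The region chr4:144634477-144638147 was 134 bases from Srgap3, a regulator of Rac signalling in neurite growth, and had 10.9, 8.12 and 6.87 against 9.94, 10.2 and 5.62 FPKM. The region chr2:115789213-115795211 was 108 bases from Slc7a14, a lysosomal transporter gene, with 6.76, 3.76 and 3.67 against 4.60, 4.08 and 2.53 FPKM. The region chr20:10954732-10957899 was 225 bases from Pdxk, the kinase that activates vitamin B6, with 6.72, 4.82 and 5.18 against 7.92, 7.51 and 4.26 FPKM. In each of these the groups overlapped. Manipulated 6 was the lowest library in all 3, as it was for the median of named genes (2.75 FPKM).

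Farther from named rows, chr3:111396992-111411045, 5490 bases from Oip5 and 7002 from Chp1, had 21.5, 15.1 and 17.3 against 17.9, 18.8 and 9.35 FPKM over spans of 13533 to 13983 bases. The region chr14:30365434-30369564 lay 34302 bases from Mir193b and had 9.59, 5.52 and 5.39 against 7.49, 7.02 and 3.76 FPKM. Of the 10, 9 had a log2 fold change between -0.28 and 0.17, and the region beside Nmnat2 was the exception.

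By distance, the 99 single-locus regions within 1 kb of a named row had a median log2 fold change of -0.04, the 83 at 1 to 10 kb of -0.07, the 116 at 10 to 100 kb of -0.09 and the 45 beyond 100 kb of -0.27. These medians are descriptions, and the regions share their libraries.

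Regions assembled in every library of a group and in none of the other were mostly of the untreated rats. There were 1050 regions of untreated 1, 2 and 3 alone (4.69%) and 32 of manipulated 4, 5 and 6 alone (0.143%). Over all unnamed regions, inside and outside genes, the shares were 2.54% and 0.192%. The untreated set had a median span of 1231 bases and a median locus level of 0.744 FPKM, and 145 (13.8%) lay within 1 kb of a named row. Of the manipulated set, 16 (50%) lay within 1 kb, with a median of 1.22 FPKM. An absent locus means that none was assembled there, and does not give a level of 0.

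Most of the highest of these were short. The region chr19:36906179-36906252 had 547.9, 301.8 and 602.6 FPKM in untreated 1, 2 and 3, with 14.0 to 25 implied fragments over 74 bases. At chr6:18730102-18730180, 91490 bases from Mtm1, a phosphoinositide phosphatase gene, the untreated values were 408.7, 182.3 and 514.6 FPKM. At chr9:23108836-23108939 they were 200.2, 237.4 and 146.8 FPKM. At chr1:181971161-181971359 they were 24.3, 107.2 and 337.7 FPKM, from 43.9, 20 and 59.9 implied fragments, and varied most. The region of scaffold KL568161.1 at 6402671 to 6580403 had 165.5, 147.0 and 147.1 FPKM, with loci of 94 and 87 bases in untreated 1 and 2 and of 177723 bases in untreated 3.

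Of the manipulated set, chr15:42301787-42301875, 187501 bases from Pbk, had the highest mean, with 128.0, 203.9 and 118.3 FPKM. At chr4:135457384-135457503, 110758 bases from a row of the small nuclear RNA U6, the values were 40.4, 87.8 and 48.3 FPKM. At chr20:27083620-27083759, 56 bases from Atoh7, a transcription factor gene known from the retina, manipulated 4, 5 and 6 had 21.3, 46.3 and 98.2 FPKM from 9.59 to 18.9 implied fragments. Atoh7 was low in both groups, at 0.628, 0.441 and 0 against 0.431, 0.359 and 0.363 FPKM. At chr13:33475718-33508776 the values were 8.95, 9.86 and 94.3 FPKM, and the interval of manipulated 4 ran from 0 to 93.9. At chr14:61211337-61211593, 36403 bases from Dhx15, an RNA helicase gene, the values were 3.83, 5.34 and 51.2 FPKM, and manipulated 6 was assembled with 121 bases against 250 and 245.

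Few loci had a marker gene of brain cell types as their nearest row. Genes of the thalamic and hypothalamic list were nearest to 16, 10 and 7 loci in untreated and 3, 0 and 2 in manipulated libraries. This was a ratio of 0.152, against 0.502 for all loci, and it rested on 23 regions next to 4 of the 16 listed genes. Of all the lists, that of the olfactory bulb alone had a region seen in all 6 libraries. For the striatal list the numbers were 14, 9 and 7 against 14, 4 and 4, and for the oligodendrocyte list 19, 9 and 1 against 5, 7 and 2. For the astrocyte list they were 14, 6 and 9 against 1, 2 and 8. The choroid plexus list, with 0, 0 and 0 against 0, 2 and 2, and the olfactory bulb list, with 3, 2 and 1 against 3, 4 and 4, went the other way. The former came from 2 regions next to 1 gene and the latter from 5 regions next to 3 genes. These numbers are a small part of the 7579 to 29309 loci in a library.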

How the data were processed

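RNA-seq tables of 6 libraries were used, 3 untreated and 3 manipulated, grouped by the treatment label. The authors deposited gene-level FPKM values with an interval and a status, for which the submitters' processing notes name STAR 2.7.3a, Cufflinks without a version and the build Rnor_6.0. Each table holds loci assembled in that library alone. The sources used here state no read totals, RNA selection, strandedness or annotation release. Model length enters FPKM, so a locus assembled shorter reads higher. Strands cannot be told apart.

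Unnamed loci that shared no base with a named row of any table were merged where they overlapped. Region levels are means over loci weighted by span. Starts were found to count from 0 (304 of 377 microRNA rows match their hairpin's length that way) and are printed from 1. The implied fragment number of a locus comes from the width of its interval, read as 2 SDs on each side. Tracts join loci across gaps of up to 10 kb.

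The scale of the test was log2(FPKM + 1). The tool was limma 3.58.1 (R 4.3.3), two-sided, fitted with a trend of variance on level, and with Benjamini-Hochberg adjustment over 10992 features: regions with 1 locus in every library and 26641 symbols with 1 place and no shared row, where the mean was at least 1 FPKM. Fold changes on this scale understate low features. Single values per library were compared by exact permutation over 10 splits. On simulated data for this comparison, with 10992 features, 9.8% of features changed by 1 and 65.8% of those changed by 2 (log2) were recovered. Members and gene lists were chosen with earlier results of these data known. Regions named in the text are the 10 with the highest mean FPKM, those that passed or, to 5 in each direction, had the smallest p, the 3 longest, the 3 farthest, up to 5 highest of each group alone, and the loci nearest the edge of the rule. One region that this rule names is not reported here. A further 10 long regions and the tracts were picked after values were seen. Alternatives covered filters, distance, merging, scaling, fit settings and each library left out. Python 3.11.15 and pandas 2.3.3 were used.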

Additional observations from a re-analysis of the deposited data

How the results depend on the processing

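The ratio of loci per library stayed below 1 under all 15 alternatives run (0.446 to 0.592 with a library left out, 0.366 to 0.647 otherwise; exact permutation p 0.1 to 0.2), and the ratio of median spans did so under its 9 (0.902 to 0.952 and 0.809 to 0.943). The ratio of median distances, 0.979, turned above 1 without untreated 2 (1.02), untreated 3 (1.01) or manipulated 5 (1.24). It was 0.817 to 1.24 with a library left out and 0.695 to 0.781 under the other alternatives. The ratio of median FPKM, 0.977, became 1.11 for loci of at least 1 FPKM, 1.04 for those with at least 20 implied fragments, 1.03 without untreated 3 and 1.04 without manipulated 6. It was 0.941 to 1.04 with a library left out and 0.882 to 1.11 otherwise. Regions in all 6 libraries fell from 1749 to 723 with loci of at least 1 FPKM and to 1088 at 5 kb or more from named rows. Regions of the untreated group alone fell from 1050 to 507 when merged up to 1000 bases apart, to 249 at 1 FPKM and to 414 at 20 implied fragments, and those of the manipulated group from 32 to 17 when merged and to 13 at 20 implied fragments. With a library left out, an alternative chosen after seeing the data, they numbered 1165 to 3603 and 59 to 88, since fewer libraries have to lack or hold a locus. Regions past the threshold, 1 in the reported fit, numbered 0 with no filter on low values, 3 with a mean of at least 5 FPKM, 5 with a robust prior, 25 with weights per library (12 higher, 13 lower), 0 with regions alone, 2 with regions of several loci kept, 0 among regions with spans within 1.5 times, and 34 (6 higher, 28 lower) when regions missing from libraries were entered at 0. They numbered 2 to 4 with a library left out. The region that passed in the reported fit was not among those with spans within 1.5 times, so that fit did not test it. The median log2 fold change of -0.14 became 0.24 with median-ratio scaling, and was -0.21 to -0.0029 with a library left out. The cause of these changes was not tested. No paired analysis was possible because the groups share no replicate numbers. The fragments behind a typical locus limit what its level can show.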
